A study of Sus scrofa with 9 samples.

Results

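STEAP4 and 7 other genes of iron and copper handling (TFRC, TF, FTH1, FTL, CP, LTF and HAMP) were followed in testis biopsies of a boar carrying a reciprocal translocation, t(1;14), of an oligospermic boar and of control boars. The genes were found on the array by their name or by their symbol in the probe description, which gave 26 probes of the 60889 measured. The STEAP4 probe was selected on its difference between t(1;14) and control testis, and the other genes are partners of STEAP4 in metal metabolism. For that contrast, all values of the 8 genes are therefore given as a description without a test. In the Sscrofa11.1 assembly, STEAP4 lies on chromosome 9, FTH1 on 2, FTL and HAMP on 6, and TFRC, TF, CP and LTF on 13, so that none lies on a translocated chromosome.

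Total RNA was labelled with cyanine 3 and hybridized to a custom porcine Agilent array, with 3 arrays per group. The t(1;14) group was an oligo-astheno-teratospermic Landrace × Duroc crossbred boar with the karyotype 2n=38,XY,trcp(1;14), and the oligospermic group was 1 boar with a normal karyotype, 2n=38,XY. The control group had the same normal karyotype and normal semen parameters. The study's text names several fertile boars and also a pool, and the boar behind a given control array is not stated. Within a group, the arrays hold independent biopsies, and the ages of the boars are not given in the sources used here. Differences between the t(1;14) and the oligospermic group are differences between 2 animals, so the p-values of that comparison measure the spread between biopsies. P-values against control may also hold a spread between control boars, which cannot be told apart from it. None measures the spread between boars with t(1;14) or with oligospermia, as each of these groups is 1 boar. Between 37087 and 40632 probes per array were well above background, a call of the scanner software on each spot, and between 52 and 275 were saturated. Values are log2 intensities normalized over the 9 arrays. They are compared between groups for the same probe and never between probes.

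Iron enters most cells as transferrin (TF), a plasma carrier that binds the transferrin receptor (TFRC) and is taken up into endosomes, where STEAP metalloreductases reduce ferric iron so that it can cross the membrane. STEAP4 also reduces cupric copper. Iron is stored inside a shell of ferritin heavy (FTH1) and light (FTL) chains, ceruloplasmin (CP) is a copper-bearing ferroxidase of plasma, lactoferrin (LTF) binds iron in secretions and neutrophil granules, and hepcidin (HAMP) blocks iron export. In the testis, Sertoli cells make transferrin and ceruloplasmin and pass iron to the germ cells behind the blood-testis barrier.

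The probes on which the results turn are printed here, because several genes were read by more than 1 probe. All are 60 bases long, 30 bases of each are printed 5′ to 3′ in the sense of the transcript, and the number is the position of the probe in the transcript it was designed on. The capitals mark the longest unbroken run, 21 bases, that both CP probes hold. The partial match is a probe outside the rule, annotated only as a short match to the human STEAP4 protein, and shares no run of more than 6 bases with the STEAP4 probe.
STEAP4, 2051: gtgctctttgattttgcttttagcaatacg
STEAP4 partial match, 574: tcttgaatttgctaccgctccagtgcaaga
TFRC, 2303: ctctctggtgacatttgggacattgacaat
TF, 2131: cctcaaaactcctggaagcctgtactttcc
TF, 1051: cctcgctgtacctggggtatcagtatgtca
FTL, 743: tacctcttcgaaaggctcacactcaagcac
CP, 3058: accagcacaGGGCATTTATACTTCTGATGT
CP, 3078: ccagcacagGGGCATTTATACTTCTGATGT
STEAP3, 4044: gccatggtctgaggttgaatgtttaaaatc

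STEAP4 was well above background on all 3 t(1;14) arrays and on no control array. The STEAP4 log2 intensity was 6.72, 7.00 and 7.09 in t(1;14), and 2.42, 2.76 and 3.20 in the controls. In the oligospermic boar it was 4.33, 3.77 and 3.21, of which only the first was well above background. The t(1;14) arrays stood apart from both other groups, and the oligospermic arrays lay at or above the highest control. The mean difference between t(1;14) and control was 4.14, and within the 3 slides, each of which held 1 array of every group, it was 4.58, 4.33 and 3.52. Since no control array was above background, this is at least 10.3-fold higher in t(1;14). Against the oligospermic boar the difference was 3.17 (2.67, 3.32 and 3.52 within the slides), also a description. With another background correction, normexp with an offset of 50, which compresses low intensities, the STEAP4 differences fell to 1.30 against control and 1.20 against oligospermic. In such bulk samples, a change in the number of cells of a type and a change of RNA per cell cannot be told apart.

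The partial match probe did not follow the STEAP4 probe. Its log2 intensity was 5.74, 5.70 and 5.82 in t(1;14), and 7.68, 7.54 and 7.79 in the oligospermic boar. In the controls it was 7.21, 2.50 and 8.36, the second of which was not well above background. It was thus lower in t(1;14) than in the oligospermic boar by 1.92 on the log2 scale, the opposite of the STEAP4 probe, and the controls spanned both groups. Which transcript this probe measures was not settled here.

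**Figure D1:**
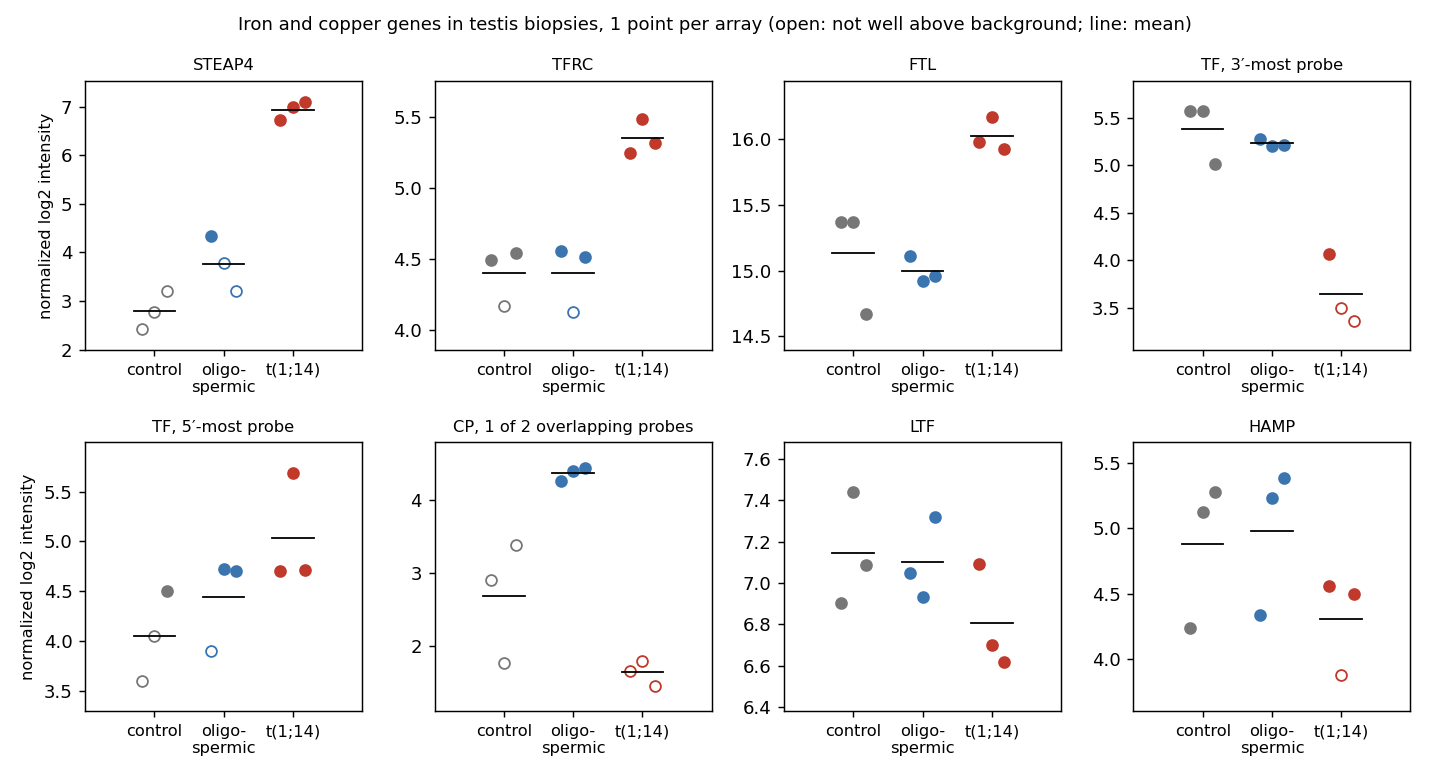
Normalized log2 intensity (y axes, each with its own range) of 8 probes of 7 iron and copper genes in control (grey), oligospermic (blue) and t(1;14) (red) testis, 1 point per array, open where the spot was not well above background, with the group mean as a line. STEAP4, TFRC and FTL were highest on the 3 t(1;14) arrays, the 3′-most TF probe was lowest there, and CP was above background only in the oligospermic boar.

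The genes of iron delivery, TFRC and TF, are given probe by probe. TFRC, the receptor for iron-loaded transferrin, read 5.25, 5.48 and 5.31 in t(1;14), 4.49, 4.17 and 4.54 in the controls, and 4.55, 4.13 and 4.51 in the oligospermic boar, the second array of both latter groups not being well above background. The t(1;14) arrays lay above all others, and the other groups overlapped. TFRC rose against the oligospermic boar by 0.95 (SE 0.15, adjusted p = 0.00158 by limma, higher in 3 of 3 slides), and the difference from control was also 0.95. With normexp, the former was 0.26 (adjusted p = 0.0202, limma). The same oligonucleotide occurs as a further spot on the array, and there the differences were 1.03 (adjusted p = 0.00188, limma) and 0.84.

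TF was read by 3 probes, of which 1 changed. The 3′-most probe, at base 2131, read 4.06, 3.50 and 3.37 in t(1;14), only the first of them above background. It read 5.58, 5.57 and 5.01 in the controls, and 5.28, 5.20 and 5.22 in the oligospermic boar. The t(1;14) arrays lay below all others. With 1 of 3 t(1;14) arrays above background, it passed the filter only through the groups in which it was high, so that its being lower in t(1;14) was favoured by the filter. Its difference from the oligospermic boar was -1.59 (SE 0.19, adjusted p = 0.000529, limma), and that of a repeat of the same oligonucleotide was -1.65 (adjusted p = 0.00123, limma). Both are differences from a group mostly at background, and with normexp the difference of the former was -0.36 (adjusted p = 0.00266, limma). The difference from control was -1.74, with -2.08, -2.20 and -0.95 within the slides. A further TF probe did not pass the test, with 4.70, 5.69 and 4.71 in t(1;14) against 3.60, 4.05 and 4.50 in the controls and 3.90, 4.72 and 4.70 in the oligospermic boar. It differed from the oligospermic boar by 0.59 (SE 0.34, adjusted p = 0.172, limma), with 1.79 on slide 1 and close to 0 on the others. The probe at base 1051 was not well above background on any array, so that the lower TF value in t(1;14) rests on the 3′-most probe.

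The ferritin chains behaved differently. FTL, the light chain, read 15.98, 16.17 and 15.93 in t(1;14), the first pair of which were saturated. It read 15.37, 15.37 and 14.67 in the controls and 15.11, 14.92 and 14.96 in the oligospermic boar. FTL rose against the oligospermic boar by 1.03 (SE 0.11, adjusted p = 0.000316, limma), with saturated spots taken at their value, which can understate the difference. Within the slides it was 1.07, 1.01 and 1.02, of which the second is from the unsaturated array. A further FTL probe outside the rule, which shares 55 bases with the first and was also saturated on 2 of 3 t(1;14) arrays, rose by 1.16 (adjusted p = 0.000128, limma). Against control the first probe differed by 0.89 and the further one by 1.09. FTH1, the heavy chain, which carries the ferroxidase site, was read by 11 probes between 14.86 and 16.30, and none changed in either tested comparison. Of these probes, 2 were saturated on every array, which allows no fold change, and 8 on at least 1. The 3 that were never saturated differed by 0.09 to 0.17 between t(1;14) and control, and by 0.12 to 0.24 between t(1;14) and the oligospermic boar.

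CP was the single member measured in the oligospermic boar alone. Of its 5 probes, 3 were not well above background on any array. The overlapping pair at bases 3058 and 3078 was above background on 2 and 3 oligospermic arrays, respectively, and on no other array. The probe at base 3078 read 4.26, 4.40 and 4.44 in the oligospermic boar, 2.90, 1.77 and 3.38 in the controls, and 1.67, 1.81 and 1.46 in t(1;14). Both t(1;14) differences from the oligospermic boar were -2.72 (adjusted p = 1.96e-05 and 2.16e-05, limma), but as the t(1;14) arrays were below background these are lower by at least 1.69-fold and 1.61-fold. The pair passed the filter only through the oligospermic boar, so that it had to be lower in t(1;14). Against control, CP in the oligospermic boar was at least 1.66-fold and 1.59-fold higher (adjusted p = 0.224 and 0.216, limma), which did not pass the test. The pair overlap, with 21 bases in their longest shared run, and are not independent readings of CP. The red cell marker HBB read 5.42, 5.59 and 5.38 in the oligospermic boar, above 3.61, 2.74 and 4.41 in t(1;14), while the controls, at 4.47, 5.89 and 3.42, overlapped with both. SLC4A1, an anion exchanger of red cells, was below background everywhere, and the mean of the 3 erythroid markers measured was 2.78 to 3.69 in the oligospermic boar, 2.57 to 3.72 in the controls and 2.60 to 3.00 in t(1;14). The part of blood in the CP values was not tested.

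LTF and HAMP showed smaller differences. LTF read 7.09, 6.70 and 6.62 in t(1;14), 6.90, 7.44 and 7.09 in the controls, and 7.05, 6.93 and 7.32 in the oligospermic boar, and the groups overlapped. HAMP read 4.56, 3.88 and 4.50 in t(1;14), 4.24, 5.12 and 5.28 in the controls, and 4.34, 5.23 and 5.38 in the oligospermic boar. The array on slide 1 was the lowest for HAMP in each group, and t(1;14) was lower on every slide, by 0.46, 0.73 and 0.82 against the oligospermic boar. Without a term for the slide, HAMP differed by -0.67 (SE 0.32, adjusted p = 0.106, limma) and LTF by -0.30 (SE 0.17, adjusted p = 0.162, limma) from the oligospermic boar. With the slide as a block, both passed the test, with an adjusted p of 0.00408 for HAMP and 0.024 for LTF. HAMP also passed without oligospermic replicate 1 (-0.99, adjusted p = 0.0111, limma). A further LTF probe and a further HAMP probe were not well above background on any array. Outside the rule, a probe that overlaps the HAMP probe averaged 3.95 in t(1;14), 4.49 in the controls and 4.47 in the oligospermic boar. Its t(1;14) arrays, of which 2 were above background, lay below all controls, and it differed from the oligospermic boar by -0.52 (adjusted p = 0.0961, limma). A probe that overlaps the LTF probe differed by -0.26 (adjusted p = 0.13, limma).

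Of the 26 probes, 20 passed the filter in at least 1 comparison and 6 (3 of CP and 1 each of TF, LTF and HAMP) were never well above background. Calls at an adjusted p of at most 0.05 are termed changed, and those with an adjusted p of at most 0.01 and a log2 difference of at least 2 in size are termed differential. Besides STEAP4, 19 probes were tested between t(1;14) and the oligospermic boar: 2 rose (TFRC and FTL), 3 fell (TF and the CP pair), and 2 of these, the CP pair, were differential. Of all probes in this comparison, 37.1% rose, 27.8% fell and 6.82% were differential. The 3 probes that fell passed the filter only through the oligospermic boar, in which they were high, so that no share of fallen or differential members is read from them. In the description of t(1;14) against control, 18 member probes passed the filter, and no calls are counted among them. Of all 40643 probes in that comparison, 28.7% rose, 22.3% fell and 5.61% were differential.

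Between the oligospermic boar and the controls, 0 of 19 member probes changed by limma, and 2, the CP pair, had an unadjusted p under 0.05. None changed with the slide block, with the 9 arrays in one model or in any other setting tried. Over all probes, 0.128% rose, 0.073% fell and 0.073% were differential. TFRC differed by 0.00 (SE 0.18), FTL by -0.14 (SE 0.22) and the 3′-most TF probe by -0.15 (SE 0.18). STEAP4 was not tested here, as it was above background on 1 of 6 arrays.

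**Figure D2:**
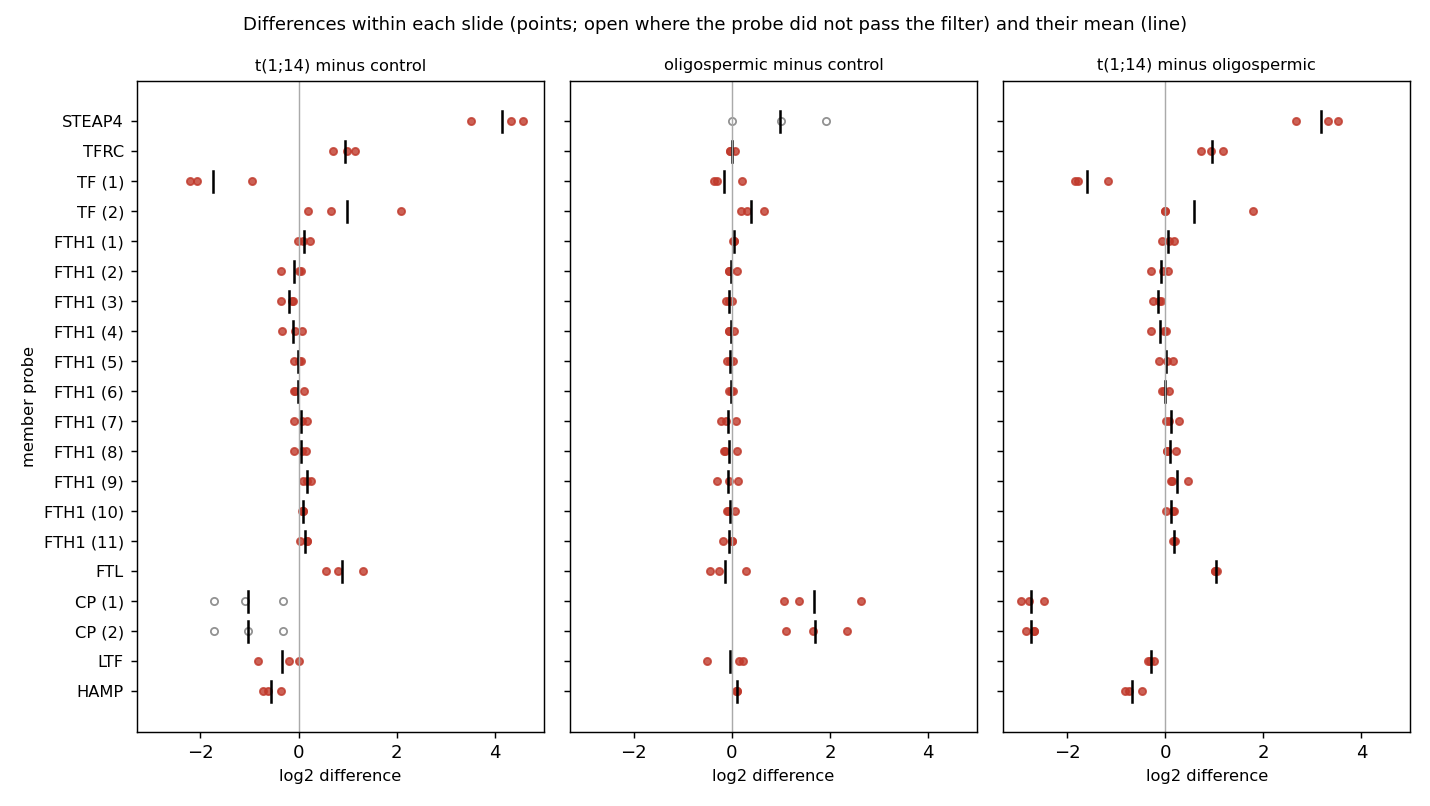
Log2 differences (x axis, same range in the 3 panels) of the 20 member probes that passed the filter in at least 1 comparison, with 1 point for each slide and the mean as a line, open where the probe did not pass it in that comparison. The STEAP4 and FTL differences of t(1;14) were above 0 on all 3 slides in both panels with that group, whereas the FTH1 probes stayed within 0.5 of 0.

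The wider network of iron and copper genes, a list of 73 symbols with the 8 genes left out, had 43 genes on the array, each read by its brightest probe. Of 40 genes tested between t(1;14) and control, 13 rose (32.5%) and 5 fell (12.5%), beside 28.7% and 22.3% of all probes, and the median difference was 0.27, beside 0.14 over all probes. Without t(1;14) replicate 3, 11 genes in place of 18 passed the test. Over all probes, 14669 of 39761 passed without that array, in place of 20723 of 40643. Of 39 genes tested between t(1;14) and the oligospermic boar, 17 rose (43.6%) and 8 fell (20.5%), beside 37.1% and 27.8% of all probes, with a median of 0.31 beside 0.14. These comparisons share the t(1;14) arrays, and the genes that fell include in both ATP7B, which passed the filter only through the groups in which it was high. Between the oligospermic boar and the controls, 0 of 40 genes changed by limma, and 3 had an unadjusted p under 0.05. STEAP3, NCOA4, BLVRB, GLRX5, ATP7B and LOX are named by a rule of size, and the other genes of the list were chosen after their values were seen.

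Among the 6 genes of iron uptake and reduction, STEAP3, the endosomal ferrireductase of the transferrin cycle and a relative of STEAP4, had the largest difference. It read 8.99, 9.12 and 8.93 in t(1;14), 6.43, 7.25 and 6.02 in the controls, and 7.32, 7.01 and 6.66 in the oligospermic boar. STEAP3 rose in t(1;14) by 2.45 (SE 0.31, adjusted p = 0.00133, limma) against control and by 2.02 (SE 0.18, adjusted p = 0.000152, limma) against the oligospermic boar, and was differential in both comparisons. Without oligospermic replicate 3 the latter difference was 1.85, below the fold threshold. CYBRD1, another ferrireductase, rose by 0.69 against control and by 0.86 against the oligospermic boar, the order in which paired values are given below. SLC11A2, the transporter that moves reduced iron out of the endosome, fell, with differences of -0.83 and -1.02, whereas STEAP1 did not pass the test, at 0.27 and 0.13. TFR2, a second transferrin receptor, fell against the oligospermic boar by 0.58 (adjusted p = 0.00836, limma) and differed from control by -0.35 (adjusted p = 0.0736, limma). SLC39A14, another metal importer, rose against the oligospermic boar by 0.57 (adjusted p = 0.0412, limma), and its other probes differed in direction.

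Of 7 genes listed for iron storage and export, 2 were measured. NCOA4, the receptor that carries ferritin to the lysosome for iron release, read 9.46, 9.93 and 9.70 in t(1;14), 8.12, 8.52 and 7.89 in the controls, and 8.18, 8.0 and 8.05 in the oligospermic boar. It rose by 1.52 (SE 0.21, adjusted p = 0.00178, limma) against control and by 1.62 (SE 0.14, adjusted p = 0.000147, limma) against the oligospermic boar, and its other probes differed from control by 1.22 and 1.23. PCBP2, an iron chaperone that also binds RNA, fell, with differences of -0.41 and -0.51. Ferroportin (SLC40A1), the iron exporter, was not analysed here.

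Of the 6 genes of iron sensing and hepcidin control, ACO1, the cytosolic aconitase that becomes an iron regulatory protein when iron is low, rose by 0.47 and 0.52. FBXL5, which marks its partner IREB2 for degradation when iron is high, rose by 0.48 and 0.61. IREB2 itself did not pass the test, at -0.19 and -0.24, and neither did HFE2 or NEO1. With the slide as a block, HFE2 passed against the oligospermic boar (adjusted p = 0.0282, limma) and NEO1 against control (adjusted p = 0.0401, limma). BMP6 was above background on 1 array and was not tested.

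Of 10 haem genes tested, 4 rose and 2 fell against the oligospermic boar, beside 37.1% and 27.8% of all probes, and 1 rose and 1 fell against control, beside 28.7% and 22.3%. BLVRB, a biliverdin reductase, read 12.11, 12.32 and 12.15 in t(1;14), 10.95, 10.86 and 10.36 in the controls, and 11.01, 10.87 and 10.88 in the oligospermic boar. It rose by 1.47 (SE 0.18, adjusted p = 0.00129, limma) against control and by 1.27 (SE 0.10, adjusted p = 0.000102, limma) against the oligospermic boar. HMOX2, the constitutive haem oxygenase, fell, with differences of -0.72 and -0.90. HMOX1, the inducible one, and CD163, the haemoglobin scavenger receptor of macrophages, rose against the oligospermic boar by 1.26 and 1.05. Against control they differed by 0.40 (adjusted p = 0.287, limma) and 0.50 (adjusted p = 0.162, limma). PPOX rose by 0.28 and UROS fell by 0.27 against the oligospermic boar, both enzymes of haem synthesis.

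In the mitochondrial list, 3 of 6 genes rose and none fell in each comparison, both of which use the t(1;14) arrays, beside 28.7% of all probes that rose against control and 37.1% against the oligospermic boar. With the slide as a block, 4 of 6 passed against control and 6 of 6 against the oligospermic boar, all higher in t(1;14) by the brightest probe of each gene. Over all probes, the block gave 21628 of 40643 changed in either direction against control and 29568 of 40567 against the oligospermic boar. GLRX5, a glutaredoxin of iron-sulfur cluster assembly, read 12.72, 12.71 and 12.79 in t(1;14), 11.21, 11.28 and 12.26 in the controls, and 11.10, 11.27 and 11.17 in the oligospermic boar. The third control array lay nearer to t(1;14) than the others. GLRX5 rose by 1.56 (SE 0.09, adjusted p = 3.49e-05, limma) against the oligospermic boar and by 1.15 (SE 0.29, adjusted p = 0.0171, limma) against control. The latter call was lost without control replicate 2 (adjusted p = 0.0501, limma) or t(1;14) replicate 3 (adjusted p = 0.0564, limma). NFS1, the cysteine desulfurase of cluster assembly, rose by 0.66 and 0.67. SLC25A37, the iron importer mitoferrin, did not pass the test, at 0.25 and 0.36, except against the oligospermic boar with the slide as a block (adjusted p = 0.0199, limma), and its other probes that were tested were all lower in t(1;14) than in either group.

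The copper list held genes that moved both ways. ATP7B, a copper-exporting ATPase, read 4.09, 4.23 and 3.64 in t(1;14), where 1 of 3 arrays was above background, 6.10, 6.60 and 5.88 in the controls, and 5.88, 5.89 and 6.08 in the oligospermic boar. ATP7B passed the filter only through the control and oligospermic groups, in which it was high. It differed by -2.21 (SE 0.24, adjusted p = 0.000771, limma) from control and by -1.97 (SE 0.17, adjusted p = 0.000145, limma) from the oligospermic boar, in both cases against a t(1;14) group mostly at background. With normexp, these differences were -0.76 and -0.62. Its relative ATP7A, the other copper-exporting ATPase, rose by 0.89 and 0.43. LOX, a copper-dependent enzyme that crosslinks collagen, read 4.83, 5.28 and 5.11 in t(1;14), 6.89, 7.31 and 6.72 in the controls, and 7.65, 7.50 and 7.64 in the oligospermic boar. LOX fell by 1.90 (SE 0.20, adjusted p = 0.000652, limma) against control and fell by 2.53 against the oligospermic boar (SE 0.14, adjusted p = 2.78e-05, limma). With normexp, LOX differed by -0.97 and -1.40. The copper chaperones COX17, for cytochrome oxidase, and CCS, for superoxide dismutase, rose by 1.20 and 1.17 and by 0.41 and 0.66. The CCS call against control was lost with the slide as a block (adjusted p = 0.0533, limma). COMMD1, which takes part in copper export, fell against the oligospermic boar by 0.76 (adjusted p = 0.000755, limma) and differed from control by -0.45 (adjusted p = 0.0512, limma). The copper importer SLC31A1, at 0.04 against control and not tested against the oligospermic boar, and the metallothionein MT1A, at 0.13 and 0.25, did not pass the test.

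**Figure D3:**
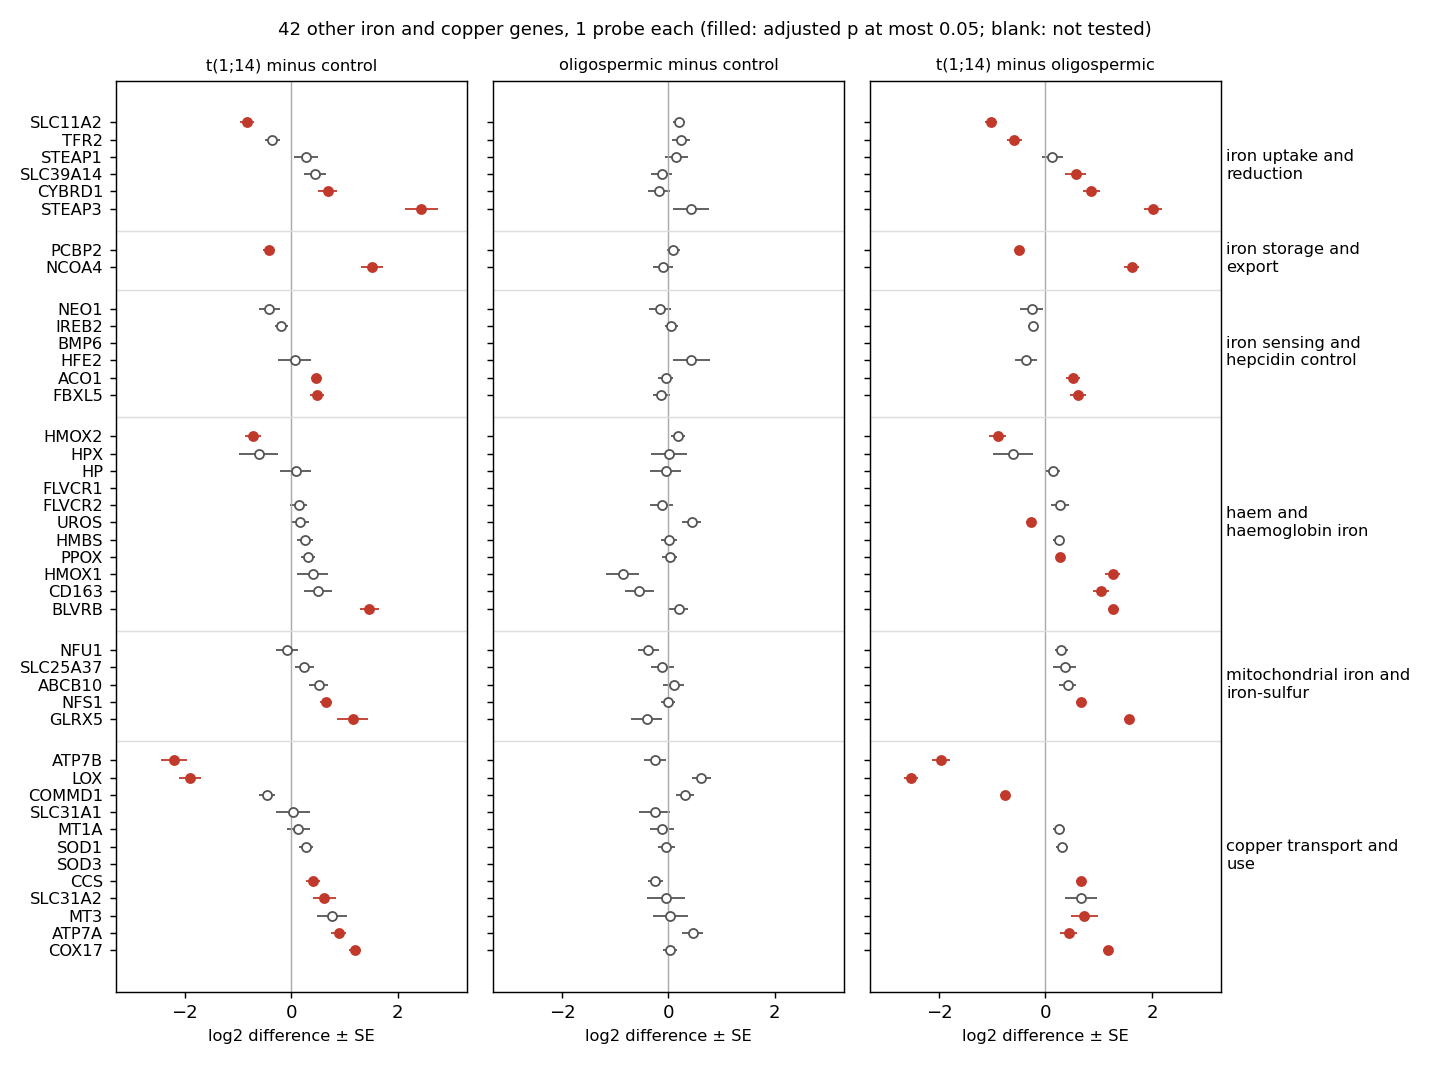
Log2 difference ± SE (x axes) of 42 of the 43 other iron and copper genes, grouped by role, in the 3 comparisons, filled red where the adjusted p was at most 0.05 and blank where not tested. In the middle panel, the oligospermic boar against control, no gene is filled, and STEAP3, NCOA4, ATP7B and LOX stand farthest from 0 in the outer panels.

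The biopsies differed in the marker genes of some of their cell types. All 6 Leydig cell markers were above background, and their mean log2 intensity was 13.02 to 13.23 in t(1;14), 10.99 to 11.25 in the controls and 11.07 to 11.51 in the oligospermic boar. The 4 germ cell markers averaged 12.04 to 12.10 in t(1;14), 13.46 to 13.58 in the controls and 13.47 to 13.56 in the oligospermic boar, with PRM1 saturated on every array. The mean of the 5 Sertoli cell markers overlapped between groups, at 9.90 to 10.10, 9.88 to 10.46 and 9.84 to 10.14 in the same order. Of these, WT1 was lower in t(1;14) (9.08, 8.76 and 8.82) than in the controls (10.25, 10.53 and 10.18) and the oligospermic boar (10.38, 10.34 and 10.63), a fall of 1.43 against control (adjusted p = 0.000675, limma), whereas FSHR was as low in the oligospermic boar (8.18, 8.10 and 7.64) as in t(1;14) (8.28, 7.95 and 8.13), against 8.98, 8.44 and 8.95 in the controls. Markers of macrophages (3 measured) were at 7.55 to 7.80 in t(1;14), 6.68 to 7.07 in the controls and 6.75 to 6.93 in the oligospermic boar, and those of peritubular and vascular cells (4 measured) at 9.94 to 10.08, 8.72 to 9.57 and 9.16 to 9.25. Of the latter, PECAM1, VWF and CDH5 were higher in t(1;14) than in the controls, by 1.405, 0.91 and 1.00. ACTA2 was not, with means of 13.88, 14.09 and 13.92 in the same order. The macrophage marker MRC1 also overlapped between groups, with means of 9.92, 9.62 and 10.01. The 4 adipocyte markers, a cell type known for STEAP4, overlapped at 4.62 to 5.05, 4.65 to 5.07 and 4.49 to 4.92, with PLIN1 below background everywhere. Within that list, CIDEC was higher in t(1;14) (5.94, 5.49 and 5.63) than in the controls (3.62, 4.48 and 2.40), and ADIPOQ was lower (3.48, 2.42 and 3.45 against 4.53, 4.41 and 5.24). Among 5 neutrophil markers, S100A8, S100A12 and MPO were below background on every array and S100A9 on all but 1, while ELANE was above it on all. The part of the cell types in the differences of STEAP4, TFRC, FTL, TF and the network was not tested.

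**Figure D4:**
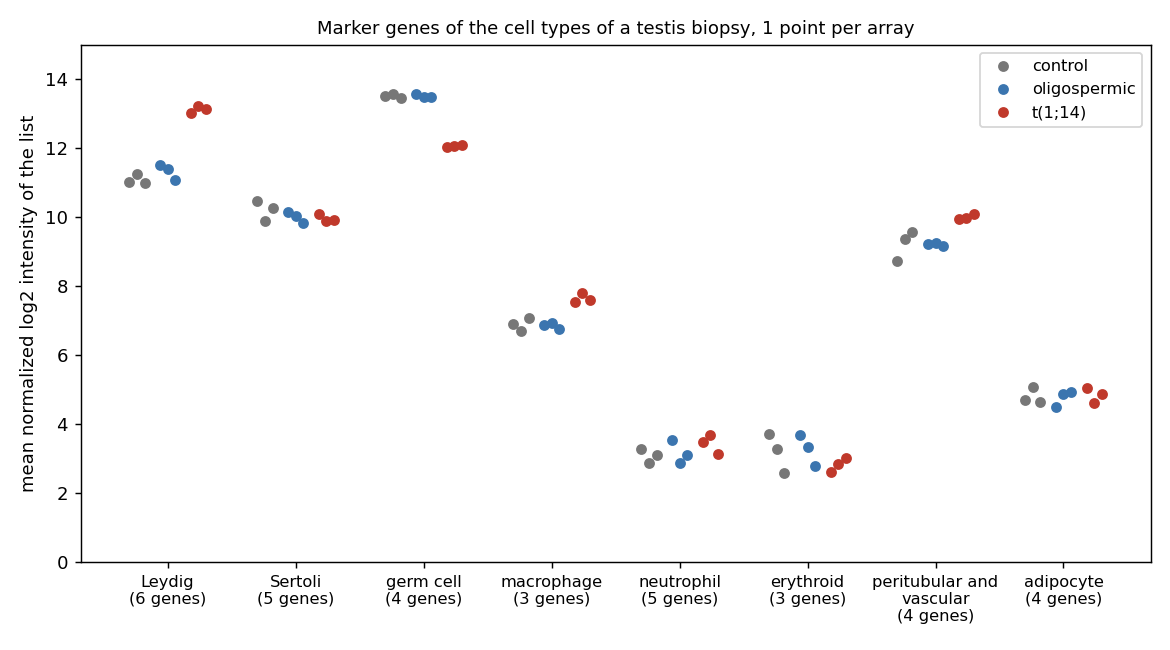
Mean normalized log2 intensity (y axis, from 0) of the measured marker genes of 8 cell types, 1 point per array, in control (grey), oligospermic (blue) and t(1;14) (red) testis. The Leydig cell mean was above 13 on the t(1;14) arrays and below 11.6 on all others, and the germ cell mean was lower on the t(1;14) arrays than on any other.

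The genes whose values followed STEAP4 most closely over the 9 arrays were RAPGEF2 (Pearson r = 0.994), MINPP1 (0.993), PPP1CB (0.992), DUOX2 (0.991) and CCBE1 (0.990), of 5597 genes compared. Only genes whose brightest probe was well above background on all 3 t(1;14) arrays were compared. RAPGEF2 is an exchange factor for Rap proteins, MINPP1 an inositol phosphate phosphatase, PPP1CB a catalytic subunit of protein phosphatase 1, DUOX2 an oxidase that makes hydrogen peroxide, and CCBE1 a secreted protein of lymphatic growth. DUOX2 read 7.06, 7.34 and 7.54 in t(1;14), 4.14, 3.66 and 4.38 in the controls, and 5.07, 4.71 and 4.31 in the oligospermic boar. All 5 were highest on the 3 t(1;14) arrays, and their mean in the oligospermic boar lay above that of the controls, as for STEAP4. This order follows from the choice of genes by their correlation with STEAP4. The arrays fall into groups, so r follows the group means and is a description only. STEAP4 was well above background on no control array and on 1 oligospermic array, so r rests in part on values at background.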

How the data were processed

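Testis RNA of 3 groups was measured on 9 single-colour arrays. The authors deposited, per the file headers, spot intensities from Agilent Feature Extraction 11.5.1.1, background-subtracted and detrended within each array, and log2 values of 38759 probes, quantile normalized over the 9 arrays (17 of the 26 member probes). The members and gene lists were chosen with earlier results of these data known. Here, intensities were averaged per probe, put on the log2 scale and quantile normalized across all arrays, and pairs of groups were compared with limma 3.58.1 under R 4.3.3, with empirical Bayes variances and Benjamini-Hochberg adjustment over all probes tested (40643, 39713 and 40567 for t(1;14) against control, oligospermic against control and t(1;14) against oligospermic). A probe was tested if well above background, without an outlier flag, on 2 or more arrays of either group. A gene was read by its probe of highest mean. A group with no array above background gives a limit, computed against the higher of the array's own value and its lowest signal well above background. Named were all member probes, listed genes that were differential or among the 5 largest changed per comparison, and the 5 genes most correlated with STEAP4. Of 60889 probes, 15480 matched a gene symbol of the RefSeq gene table. Single values of some listed genes and some probe sequences are not reported here. The limma fit was tested on simulated data with known changes.

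Arrays with the same replicate number deviated together between oligospermic and control (r of 0.493, 0.135 and 0.100), where the number is also the slide, but not between t(1;14) and control (-0.291, -0.200 and 0.142) or t(1;14) and oligospermic (-0.433, -0.343 and 0.121). The numbers therefore pair only the former groups. Arrays of 1 slide correlated at 0.347, 0.114 and 0.121 between t(1;14) and control, and at 0.498, 0.299 and 0.339 between t(1;14) and oligospermic. Alternatives tried were other normalizations, background corrections and filters, blocks, the authors' log2 values, an intensity trend, a joint model of the 9 arrays, the mean of a gene's probes, another threshold and leaving out each array. The number of arrays, not depth of counting, limits the precision.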

Additional observations from a re-analysis of the deposited data

How the results depend on the processing

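With normexp, the STEAP4 log2 differences moved to 1.30 (t(1;14) against control) and 1.20 (against oligospermic), those of TFRC and TF against oligospermic to 0.26 and -0.36, and 0 listed genes in place of 2 stayed differential in either comparison. Over all probes, normexp gave 997 differential in place of 2282 against control and 1109 in place of 2766 against oligospermic. A filter in both groups left 2 of 5 changed member probes against the oligospermic boar and 1 of 2 differential listed genes against control, because CP, TF and ATP7B are then not tested, nor is STEAP4. Leaving out each array in turn gave 11 to 21 changed listed genes against control (18 with all arrays), 20 to 24 against oligospermic (25), 2 to 3 and 1 to 3 differential ones, 4 to 5 changed member probes against oligospermic, STEAP4 differences of 3.96 to 4.35 and 2.89 to 3.45, and 0 for each count between oligospermic and control. Over all probes, leaving out each array gave 14669 to 22056 changed against control and 22715 to 26925 against oligospermic. The replicate block gave 14 and 20 changed listed genes and 5 changed member probes against oligospermic, and the slide block 22, 32 and 7. Of all probes, 16449 and 22460 changed with the replicate block and 21628 and 29568 with the slide block, beside 20723 and 26319 with no block. Among listed genes, the slide block lost the CCS call against control. Between oligospermic and control, where the numbers pair the arrays, the replicate block changed no call among these genes. Among the member genes and the listed genes named by a rule of size, each read by its brightest probe, no called difference reversed in any setting. The other listed genes were not checked for a reversal, and SLC39A14 has probes that differ in direction. Saturation limits FTL and FTH1, and signal near background limits STEAP4, CP, HAMP and ATP7B.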

Other observations

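Close relatives of the CP and TF genes on the same array were chosen after their values were seen. A ceruloplasmin-like gene, LOC100158001 (a ferroxidase relative of CP), was read by 5 probes, of which 3 were tested. Of these, 2 had no t(1;14) array above background and passed the filter only through the other groups, so that they had to be lower in t(1;14), by at least 3.93-fold and 3.37-fold against control. Its brightest probe read 3.92, 4.93 and 4.60 in t(1;14), 7.45, 7.90 and 5.81 in the controls, and 6.54, 6.38 and 6.25 in the oligospermic boar. It fell by 2.57 (SE 0.56, adjusted p = 0.0107, limma) against control and fell by 1.91 (SE 0.26, adjusted p = 0.000908, limma) against the oligospermic boar. ICA, the porcine inhibitor of carbonic anhydrase, belongs to the transferrin family, and the reference table gives it the symbol TF as well. It read 7.33, 7.14 and 6.97 in t(1;14), 9.98, 10.01 and 9.61 in the controls, and 9.60, 9.49 and 9.72 in the oligospermic boar. ICA fell by 2.72 (SE 0.16, adjusted p = 0.000139, limma) against control and fell by 2.46 against the oligospermic boar (SE 0.13, adjusted p = 2.53e-05, limma), and a further ICA probe differed by -2.90 and -2.52.

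BMP6, a ligand that raises hepcidin, read 7.08 on oligospermic array 1 and between 1.45 and 2.00 on the other 8 arrays, where it was not well above background. FLVCR2, a haem transporter family member, was read by 4 probes: the brightest differed by 0.14 between t(1;14) and control, and the others by -2.23 to -1.28.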
